A study of Homo sapiens with 2 samples.

Results

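The genes that make, export and use microRNAs were examined in HEK-293 cells given a miR-204 mimic. They were chosen by gene name and comprised the 4 Argonaute genes EIF2C1 to EIF2C4 (now AGO1 to AGO4), TNRC6A, RNASEN (now DROSHA), DGCR8, XPO5, DICER1 and TARBP2. All 10 genes were present, out of 30484 gene names on the array, and they held 17 of its 41000 probes other than controls. HEK-293 is a human embryonic kidney line. Cells transfected with the miR-204 mimic were compared with cells transfected with a scrambled oligonucleotide, at 75 nM for 48 h by the sample labels, so that both RNAs came from transfected cells of 1 line. The 2 RNAs were hybridized together on a 2-colour Agilent whole genome array, the first array with control RNA in Cy3 and miR-204 RNA in Cy5, and the dye-swap array with the dyes exchanged. No second transfection is named, so the arrays were treated as 1 replicate, and no difference below could be tested against a spread between cultures.

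MicroRNAs are cut from long nuclear transcripts by the Microprocessor, a complex of the nuclease Drosha and its RNA-binding partner DGCR8. The hairpin is then carried to the cytoplasm by exportin 5, trimmed to a short duplex by Dicer with its partner TRBP, and 1 strand is loaded into an Argonaute protein, which recruits TNRC6 proteins to repress and degrade matching mRNAs. A transfected mimic is already a short duplex, so it enters this route at the Argonautes and draws on the same proteins as the microRNAs of the cell.

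The sequence below is that of mature miR-204, shown because its seed (bases 2 to 8, in capitals) determines which mRNAs it pairs with. The labels do not give the letters of the mimic itself. Of 2545 mature human microRNAs in the RefSeq table (GRCh38.p14), only miR-211-5p has the same seed, and it differs from miR-204-5p by A17U and U18C, counted from the 5′ end. MIR204 lies on chromosome 9 from 70810031 to 70810052 on the minus strand for this arm.
hsa-miR-204-5p: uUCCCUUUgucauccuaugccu
hsa-miR-211-5p: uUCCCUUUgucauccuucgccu

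DGCR8 and DICER1 are themselves sources of microRNAs. For DGCR8, the hairpins lie inside the gene that encodes the subunit needed to cut them. In GRCh38.p14, miR-3618 lies on chromosome 22 from 20085797 to 20085818 and miR-1306-5p from 20086072 to 20086093, both within DGCR8 and on its strand. DICER1 holds miR-3173, on chromosome 14 from 95137923 to 95137944 for the 3p arm and from 95137961 to 95137982 for the 5p arm. All are shown because they are products of member genes, with seeds again in capitals. None has the seed of miR-204.
hsa-miR-3618: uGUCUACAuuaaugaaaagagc
hsa-miR-1306-5p: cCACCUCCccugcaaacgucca
hsa-miR-1306-3p: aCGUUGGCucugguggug
hsa-miR-3173-3p: aAAGGAGGaaauaggcaggcca
hsa-miR-3173-5p: uGCCCUGCcuguuuucuccuuu

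A probe was counted when at least 1 of the 2 RNAs was well above background on each array, by the flag of the authors' software. The same RNA had to pass on both arrays. This held for 25270 probes, of which 23159 were well above background in all 4 channels. No probe was named for miR-204, so the level of the mimic was not read by these arrays. As a check of the cell line, VIM, CDH2 and NEFL, which HEK-293 is known to express, were well above background with every probe in all 4 channels, while NEFM was with 1 of 2 probes and PAX2 with none. No probe for ALB, APOA1, PTPRC, CD3E, HBB or MYH7 passed in any channel, whereas DES and 1 of 3 GFAP probes passed in all 4, and both KRT14 probes in some. Ratios below are log2 of miR-204 over control after quantile normalization of the 4 channels, with the dye-swap array turned so that a positive value means more signal in the miR-204 RNA.

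All 10 genes were measured by at least 1 probe. Of the 17 probes, 13 were counted, and each of these was well above background in all 4 channels. None of the 13 reached a 2-fold mean difference with 1 sign on both arrays, with 0 lower and 0 higher. Over all counted probes, 0.518% were lower and 0.123% were higher by this rule. The absence of calls among 13 probes is thus near the background. At 1.5-fold the members again gave 0 lower and 0 higher, where 2.62% of all counted probes were lower and 1.27% higher. The mean ratios of the members ran from -0.26 for EIF2C2 to 0.35 for a DICER1 probe, with a median of 0.072. Over all counted probes the median was 0.0015 and the quartiles were -0.16 and 0.15. The median size of the mean ratio, whatever its sign, was 0.14 for member probes and 0.15 for all counted probes.

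The size of these ratios can be set against the error on each array. The software's error for each signal gave an error of 0.20 to 0.21 in log2 for the ratio of every counted member probe on 1 array. The spread over repeated spots was smaller, with a median SD of 0.045 (first array) and 0.047 (dye-swap array) over 140 probes spotted 10 times. The ratio exceeded its error for 7 of the 13 member probes on the first array, and for 4 on the other. No member probe exceeded it on both arrays with the same sign. Only an EIF2C4 probe exceeded it on both, and with opposite signs. These errors describe the reading of spots, not the spread between cultures. The software's ratio error was nearly the same for every member probe, so these counts amount to a near-fixed cutoff on the ratio. The share of all counted probes past their error was not computed, so the counts are not read as a result about the members.

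**Figure D1:**
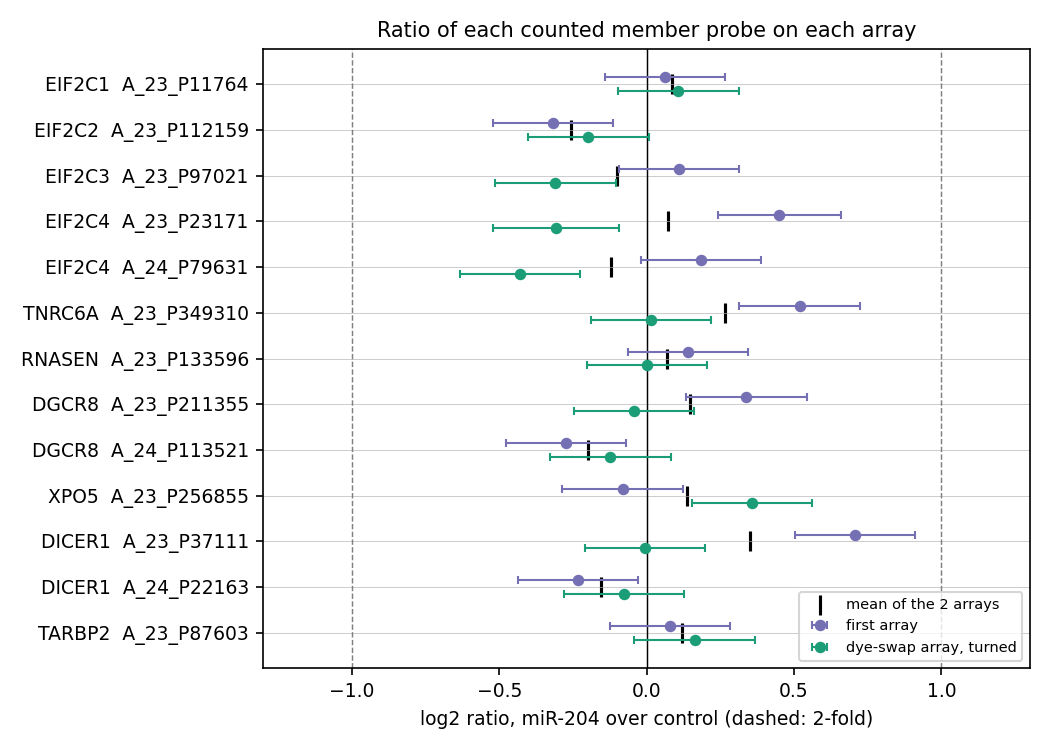
Log2 ratio of miR-204 over control for the 13 counted probes of the 10 genes, shown separately for the first and dye-swap arrays, with bars for the error propagated from the software's signal errors, a tick at the mean of the 2 arrays and dashed lines at 2-fold. Every mean lies between -0.26 and 0.35, well inside the dashed lines, and several probes take opposite sides of 0 on the 2 arrays.

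RNASEN encodes Drosha, the nuclease that makes the first cut. Its single probe lies on chromosome 5 from 31437230 to 31437289 (hg18, as for all probes below). Its normalized signal was 11040 with control RNA and 12160 with miR-204 RNA on the first array. On the dye-swap array these signals were 11680 and 11690. The ratios were 0.14 and 0.00083, with a mean of 0.070 (1.05-fold), and both were within their error.

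DGCR8, the partner of Drosha, was measured by 2 probes on chromosome 22, and they took opposite sides of 0. The probe A_24_P113521, from 18454131 to 18454190, gave 2743 with control RNA and 2271 with miR-204 RNA on the first array. It gave 2808 and 2579 on the dye-swap array, so that the miR-204 RNA was the dimmer of the pair on both, with a mean ratio of -0.20. The probe A_23_P211355, from 18478916 to 18478975, gave 1010 and 1278 on the first array. Its signals were 1079 and 1048 on the dye-swap array, where the order turned, and its mean ratio was 0.15. The mean over both DGCR8 probes was -0.025.

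XPO5 encodes exportin 5, the carrier of hairpins out of the nucleus. Its probe, on chromosome 6 from 43598561 to 43598620, gave normalized signals of 873.1 with control RNA and 825.4 with miR-204 RNA on the first array. On the dye-swap array the order was the opposite, with 796.0 and 1020.0. The ratios were -0.081 and 0.36, with a mean of 0.14, and only the second exceeded its error. The arrays thus disagreed on the direction for XPO5.

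DICER1, which encodes the cytoplasmic nuclease that releases the duplex, held the ratio farthest from 0 among the members on a single array. Its probe A_23_P37111, on chromosome 14 from 94625986 to 94626045, gave 1438 with control RNA and 2347 with miR-204 RNA on the first array, a ratio of 0.71. The dye-swap array gave 1612 and 1607, a ratio of -0.0043, so that the higher miR-204 signal was seen on 1 of the 2 arrays. The mean of 0.35 (1.28-fold) was at or above that of 93.5% of all counted probes. The other DICER1 probe, A_24_P22163, whose ends lie at 94627185 and 94627337, gave ratios of -0.23 and -0.077, with a mean of -0.15. The 2 probes, which carry the same transcript accession, differed by 0.94 on the first array but by 0.073 on the other. The mean over both was 0.098.

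TARBP2 encodes TRBP, the RNA-binding partner of Dicer. Its probe on chromosome 12, from 52186164 to 52186223, gave normalized signals of 1515 with control RNA and 1600 with miR-204 RNA on the first array, and 1489 and 1667 on the dye-swap array. The miR-204 RNA was the brighter on both arrays, by ratios of 0.079 and 0.16 that were each within their error.

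**Figure D2:**
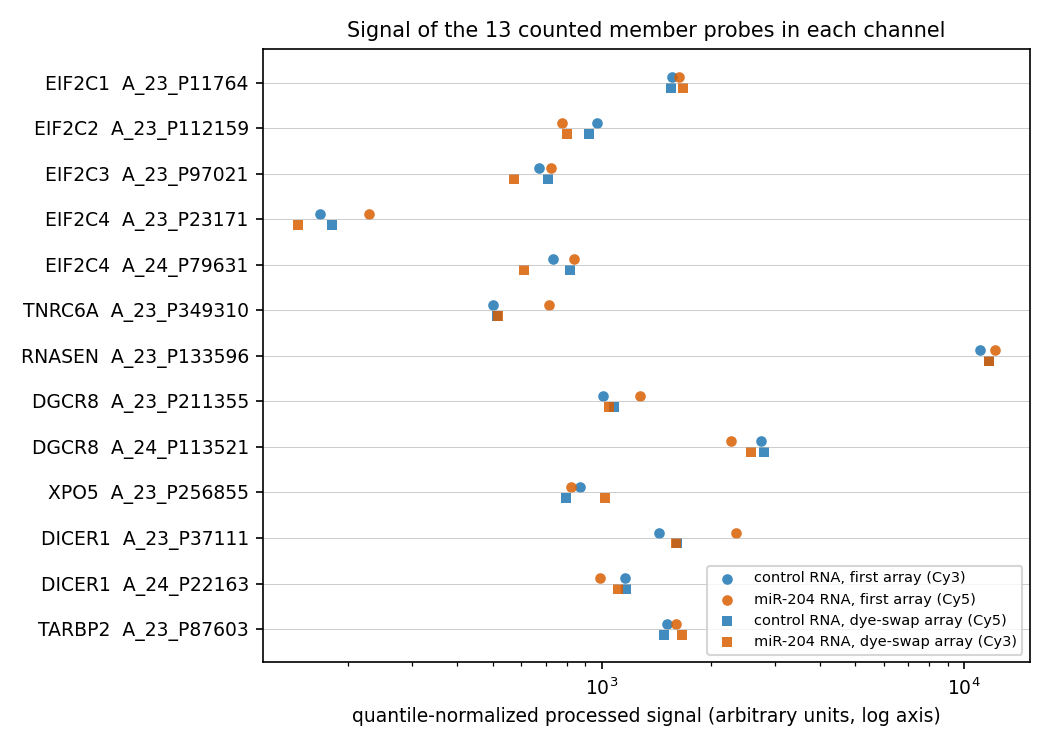
Quantile-normalized processed signal (arbitrary units, log axis) of the 13 counted probes in the 4 channels, with control RNA in blue, miR-204 RNA in orange, circles for the first array and squares for the dye-swap array. Blue and orange points of a probe lie close together, the widest gap being that of DICER1 A_23_P37111 on the first array, from 1438 to 2347. Signals of different probes are not comparable as levels.

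The Argonautes bind the guide strand, the step at which a duplex mimic enters the pathway. EIF2C2 encodes AGO2, the human Argonaute best known for cutting its target, and lies on chromosome 8. Its probe gave 969.4 with control RNA and 777.5 with miR-204 RNA on the first array. It gave 921.1 and 803.2 on the dye-swap array. The miR-204 RNA was the dimmer on both. The ratios were -0.32 and -0.20, and only the first exceeded its error. The mean of -0.26 (0.836-fold) was the lowest of the members. It lay outside the lower quartile of all counted probes.

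EIF2C1 (AGO1), EIF2C3 (AGO3) and EIF2C4 (AGO4) are neighbours on chromosome 1, in the order EIF2C4, EIF2C1, EIF2C3. For EIF2C1, the probe A_23_P11764, from 36162281 to 36162340, gave 1568 with control RNA and 1637 with miR-204 RNA on the first array, and 1551 and 1672 on the dye-swap array. Its ratios of 0.063 and 0.11 had the same sign, and both were within their error. For EIF2C3, whose probe lies from 36294139 to 36294198, the signals were 673.3 and 726.8 on the first array and 709.6 and 572.5 on the dye-swap array. The ratios of 0.11 and -0.31 disagreed in sign.

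EIF2C4 was measured by 2 counted probes that disagreed between arrays in the same way. A_23_P23171, from 36093007 to 36093066, had ratios of 0.45 and -0.31, from signals of 167.2 and 228.6 on the first array and 180.0 and 145.5 on the dye-swap array. A_24_P79631, from 36095690 to 36095749, had ratios of 0.18 and -0.43, from 736.0 and 836.5 on the first array and 819.8 and 608.9 on the dye-swap array. On both arrays the channel labelled with Cy5 was the brighter for both probes. The mean over the EIF2C4 probes was -0.025. The Argonaute genes are paralogs, and since the letters of the probes were not used here, signal from 1 Argonaute mRNA on the probe of another was not tested.

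TNRC6A encodes GW182, the scaffold through which Argonautes recruit the machinery of mRNA decay. Its only counted probe, A_23_P349310, on chromosome 16 from 24743111 to 24743170, gave 499.9 with control RNA and 716.7 with miR-204 RNA on the first array. On the dye-swap array the signals were 513.4 and 518.7. The ratios of 0.52 and 0.015 had the same sign, and the mean was 0.27 (1.20-fold), but as for DICER1 A_23_P37111 the difference was seen almost only on the first array. A total of 88.5% of all counted probes had a mean ratio at or below it.

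The 4 remaining probes of these genes were not counted, and no fold is read from them. Both other TNRC6A probes, A_23_P377806 and A_24_P917862, and the third EIF2C4 probe, A_24_P941670, were not well above background in any channel. The processed signals of A_24_P941670 were 21.1 with control RNA and 6.72 with miR-204 RNA on the first array, and 8.73 and 6.09 on the dye-swap array. The second EIF2C1 probe, A_24_P96749, whose ends lie at 36152135 and 36152376, passed with miR-204 RNA on the first array, and with control RNA on the other. It passed in Cy5 and not in Cy3 on both arrays, with processed signals between 17.9 and 22.5 in all 4 channels.

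The arrays often disagreed in sign, for these genes and over the whole array. The sign was the same on both arrays for 7 of the 13 counted member probes (53.8%), 3 with both ratios below 0 and 4 with both above. Over all counted probes it was the same for 47.5%, so the share among the members was near that of the whole array. The Pearson correlation between the ratios of the 2 arrays was -0.0255 over all counted probes and -0.0577 over the 13 member probes. A shared sign on the 2 arrays is thus not read here as a reproduced change. Subtracting the mean ratio from the first-array ratio leaves the part that moves with the dye, and it exceeds the mean ratio in size exactly where the signs differ. This part ran from -0.22 for XPO5 to 0.38 for EIF2C4 A_23_P23171. It was above 0, the side of a brighter Cy5 channel, for 7 of 13 member probes and for 54.0% of all. The part of the dyes in each single ratio was not tested.

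**Figure D3:**
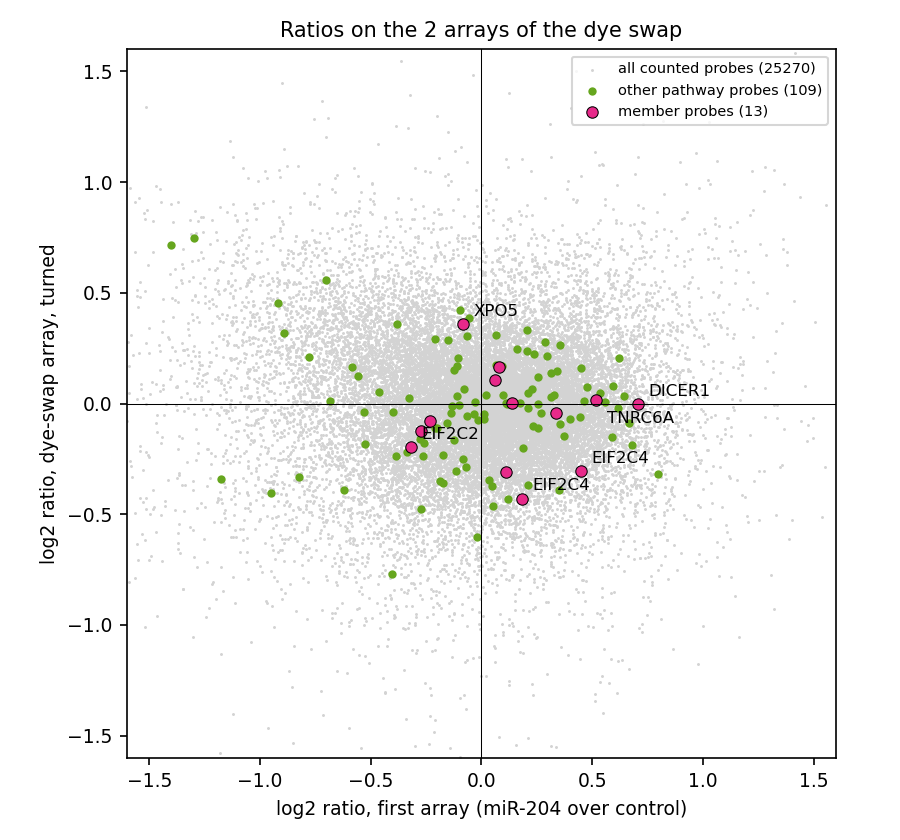
Log2 ratio of miR-204 over control on the first array (horizontal axis) against the turned dye-swap array (vertical axis) for 25270 counted probes in grey, 109 probes of other microRNA pathway genes in green and 13 member probes in pink. A ratio alike on both arrays would lie on the rising diagonal. Member probes lie within the grey cloud. DICER1 A_23_P37111 and TNRC6A lie farthest right among them, at 0.71 and 0.52, and near 0 on the vertical axis. The axes end at 1.6 in each direction, and 192 counted probes lie outside them.

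Probes of 1 gene can be compared with each other, since they see the same 2 RNAs. DICER1, DGCR8 and EIF2C4 had 2 counted probes each. Their mean ratios differed by 0.51 for DICER1, 0.35 for DGCR8 and 0.19 for EIF2C4. Across the 3850 gene names with 2 counted probes, the median difference was 0.15, and 89.9% of them differed by no more than DICER1 did. The same share was 78.4% for DGCR8 and 58.4% for EIF2C4. Under the reported normalization, the sign of the mean ratio in each of these genes depends on which probe is read. For EIF2C4, however, the 2 probes had the same sign on each array. The sign of its A_23_P23171 mean also changed with the normalization. The share of the 3850 gene names whose 2 means had opposite signs was not computed, so these signs are not read as a result about the members.

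Other genes of the pathway were taken from a list of cofactors, Argonaute partners and decay factors. Of 72 symbols searched, 65 were found, with 125 probes, and 109 probes of 59 genes were counted. None was lower and none was higher by 2-fold, against 0.518% and 0.123% of all counted probes. At 1.5-fold, 3 were lower and 0 higher, against 2.62% and 1.27%. The median mean ratio was -0.0096, and the values ran from -0.76 to 0.42. By group, the medians were -0.073 over 21 probes of processing and stability factors, -0.0019 over 34 probes of Argonaute and TNRC6 partners, -0.0071 over 44 probes of deadenylation, decapping and decay factors, and 0.16 over 9 probes of other export and decay factors.

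The lowest list probe among those well above background in all 4 channels belonged to HSP90AB1, a chaperone of the HSP90 family that helps to load Argonautes. This probe, A_24_P170295, had a first-array ratio of -1.18 and a dye-swap ratio of -0.34. The other HSP90AB1 probes had mean ratios of 0.050 and 0.19, so that the gene was low with 1 of 3 probes. HSP90AA1, its close relative, had mean ratios of -0.58, -0.51, -0.14 and 0.056 over 4 probes. The 3 lowest HSP90AA1 probes were below 0 on both arrays. LIN28B, which blocks the maturation of let-7 microRNAs, had ratios of -0.95 and -0.40 with A_24_P769529, and a mean of -0.079 with its other probe.

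At the other end, the highest list probe was A_24_P40417 of FMR1, which encodes an RNA-binding protein that associates with Argonautes, with ratios of 0.62 and 0.21. Another FMR1 probe, A_24_P93967, had a mean of -0.35, so that FMR1 also differed between its probes. LSM14A, a component of P-bodies, had 0.64 and 0.036 with A_24_P365327, and a mean of 0.30 with its other probe. CNOT6, a deadenylase of the CCR4-NOT complex, had 0.59 and 0.081 with A_23_P167417. The other CNOT6 probes had means of -0.062 and 0.13, the lower of them below 0 on both arrays. For A_24_P40417, A_24_P365327 and A_23_P167417 the first-array ratio was the larger. Ratios were also wider on the first array over all counted probes, with an SD of 0.45 against 0.33 on the dye-swap array.

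The list also holds the closest relatives of the members. TNRC6B, a paralog of TNRC6A, had 4 counted probes with mean ratios of -0.31, -0.22, -0.21 and -0.16, all below 0, where the counted TNRC6A probe was above 0. Only A_23_P6490 and A_23_P6481 of TNRC6B were below 0 on both arrays. TNRC6C had a mean of 0.12 with its counted probe. Of the PIWI genes, germline relatives of the Argonautes, only PIWIL4 had a counted probe, with ratios of -0.40 and -0.77 and a miR-204 signal on the dye-swap array that was not well above background. PIWIL1 and PIWIL3 were not well above background in any channel, and PIWIL2 passed with 1 of 2 probes on the first array only.

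**Figure D4:**
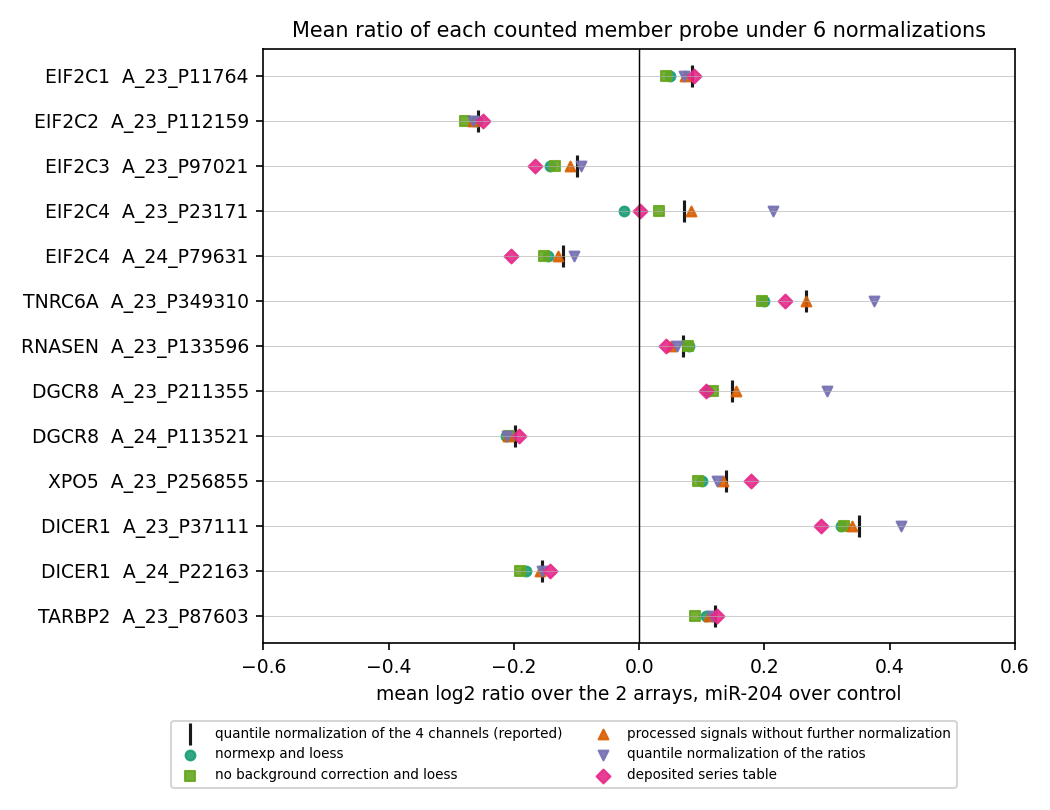
Mean log2 ratio over the 2 arrays of each counted member probe under the reported quantile normalization of the 4 channels (black tick) and under 5 other treatments of the signals (coloured points). For 12 of 13 probes all points stay on 1 side of 0, and the exception is EIF2C4 A_23_P23171, which ran from -0.024 to 0.21.

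Under 5 other treatments, which changed the background correction, the normalization or the deposited values used, 12 of the 13 probes kept the sign of their mean ratio. EIF2C2 stayed between -0.28 and -0.25, DICER1 A_23_P37111 between 0.29 and 0.42, and TNRC6A between 0.20 and 0.38. DGCR8 A_23_P211355 ran from 0.11 to 0.30, and the EIF2C1 probe from 0.043 to 0.088. The means over both probes changed sign, from -0.050 to 0.045 for DGCR8 and from -0.10 to 0.054 for EIF2C4, and were above 0 only when the ratios were quantile normalized. When each array was also read alone, 7 of the 13 probes kept their sign. These are the probes whose ratios had the same sign on both arrays, so this repeats that count. A shared sign held for 47.5% of all counted probes. Those 7 were the counted probes of EIF2C1, EIF2C2, TNRC6A, RNASEN and TARBP2, with DGCR8 A_24_P113521 and DICER1 A_24_P22163. As all treatments start from the same arrays, this does not measure the spread between cultures.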

How the data were processed

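The authors hybridized RNA from miR-204 and control cells to 2 arrays with a dye swap and read the spots with Feature Extraction, version 9.5.3.1. The deposited processed signals and their errors are intensity values, background-subtracted and dye-normalized within the array by the authors' software. Mean and background signals are deposited intensity values without correction. The deposited log10 ratio is that of Cy5 over Cy3 processed signal, checked to be so wherever it is not 0. The deposited series table holds the authors' log2 ratios in the direction miR-204 over control (Pearson correlation with the turned processed ratios 0.993 for the first and 0.994 for the second array, with medians of 0.0085 and -0.018). Its centring is not stated in the sources used here.

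Control spots and 128 outlier-flagged probes were removed, spots of a probe were averaged, and log2 processed signals were quantile normalized across the 4 channels with limma 3.58.1 in R 4.3.3. Further steps used Python 3.11.15. A probe with several spots was well above background if most were. The call was a mean log2 ratio of 1 or more, or -1 or less, with the same sign on both arrays, and 1.5-fold was also used. With 1 replicate no test enters the results, and the methods' t-test over the 4 channels was run as an alternative only. The steps were tested on simulated data over 25270 probes, where 200 of 200 changes of 2 in log2 were recovered and 9 unchanged probes were called. Those changes were larger than the call at 1 in log2, and recovery of smaller changes was not tested. The number of arrays limits the precision.

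Every member is described with its probes. From the pathway list the text names the 3 lowest and 3 highest probes well above background in all 4 channels, and relatives of the Argonautes and TNRC6A. Other probes of those genes were added after their values were seen. Members, list and alternatives were chosen with earlier results of these data known. Positions of probes come from the array files (hg18), and exons were not assigned. All 10 gene names matched the RefSeq table (GRCh38.p14) by symbol or older symbol.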

Additional observations from a re-analysis of the deposited data

How the results depend on the processing

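The count of member probes past 2-fold was 0 in each direction under every alternative except 1. Without the filter on signal, 1 member probe was lower, EIF2C4 A_24_P941670, a probe too dim in all 4 channels for a fold to be read. In the pathway list, 1 probe was then lower (XRN1) and 1 higher (LIN28), both likewise not well above background in any channel. Over all probes without this filter, 400 of 40872 were lower and 252 were higher. Without the dye-swap array 3 of 109 list probes were lower, of TUT1, HSP90AB1 and FXR2, against 724 of 25270 counted probes. On the dye-swap array those of TUT1 and FXR2 had ratios above 0. At 1.5-fold 3 list probes were lower, of HSP90AB1, LIN28B and PIWIL4, against 662 of 25270 counted probes. The median over member probes was 0.072. It was -0.042 without the first array and 0.11 without the dye-swap array, and lay between 0.043 and 0.074 under the other alternatives. The causes were not tested. Taking each gene's brightest probe alone, DICER1 was 0.35 and DGCR8 was -0.20.

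The 4 channels were also put through the methods' t-test, in which 2 of the 13 member probes and 1603 of all 25270 counted probes passed the unadjusted threshold whatever the fold. After Benjamini-Hochberg adjustment 0 passed in either set, and together with 2-fold 0 member probes and 0 list probes passed before or after adjustment. This test holds no spread between cultures, since the 4 channels are 1 replicate. No paired analysis was possible because there is 1 replicate. Low signal limits 2 TNRC6A probes and 1 probe each of EIF2C1 and EIF2C4.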
